A study of Mus musculus with 13 samples.

Results

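Imprinted genes that sit inside other genes were examined in mouse embryos of embryonic day 9.5. The set was given as a list of names: the nested genes Nnat, Mcts2, Zrsr1 and Nap1l5, their hosts Blcap, H13, Commd1 and Herc3, and Inpp5f, which holds an imprinted transcript of its own. All 9 were present among the 23217 genes of the deposited table, and 8 of them had a mean of at least 1 FPKM (fragments mapped to a gene, scaled for transcript length and for the number of mapped fragments in the library) over the 13 embryos; Nap1l5, at 0.843 FPKM, did not. Poly(A)-selected RNA of whole embryos, on the C57BL/6J strain background, was sequenced from 10 embryos labelled xHomo and 3 labelled xHet, each a sample of its own. The labels do not spell out either name, and litter, sex and batch are not in them. By its title the study asks what Tet1, whose protein converts methylated cytosine to oxidized forms, does when imprints are erased. From outside knowledge of it, a Tet1 mutation came from homozygous (xHomo) or heterozygous (xHet) fathers, but no label used here says so. Nothing in the labels says that the embryos came from separate litters, so p-values measure only the spread between these samples.

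An imprinted gene is transcribed mainly from the copy of a single parent, as set by DNA methylation laid down in the germ line. In the mouse, nested genes of this kind start from a CpG-rich promoter inside an intron of the host, which is methylated on the copy inherited from the egg, so the nested transcript comes from the paternal copy. Mcts2, Zrsr1 and Nap1l5 lack introns in their coding part and are counted among the imprinted retrogenes, genes that arose from a processed RNA. Transcription of a host can be changed by its nested gene, as at H13, where polyadenylation upstream or downstream of Mcts2 differs between the copies. The deposited values do not separate maternal from paternal RNA or the transcripts of a gene, so each value below is the sum over both copies.

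The arrangement of each pair was read from the GENCODE M21 annotation (GRCm38), whereas the deposited table gives a pair as a single joint locus on the mm9 build. Nnat and Blcap shared chromosome 2, 157382097 to 157392097, and Mcts2 and H13 shared chromosome 2, 152495196 to 152534404. Zrsr1 and Commd1 shared chromosome 11, 22799727 to 22882284, and Nap1l5 and Herc3 shared chromosome 6, 58783693 to 58870390. Inpp5f was given at chromosome 7, 135754878 to 135839950. In the annotation Nnat lay in the only intron of Blcap-201, on the opposite strand. Mcts2 lay on the strand of its host, in intron 4 of H13-202 and H13-204, while the short form H13-203 ended 334 bases before it. Zrsr1 ran opposite to Commd1 inside intron 1 of Commd1-204, and 412 of its 4492 exonic bases overlapped exons of other Commd1 transcripts. Nap1l5 ran opposite to Herc3 in intron 22 of Herc3-202, and the shorter Herc3-201 ended 1152 bases before it. Of 9 Inpp5f transcripts, 2 of the 3 protein-coding ones started 76218 and 77161 bases into the gene.

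Overlap of sequence bears on how far the values of a pair can be told apart. Of the 50-base words of Zrsr1, 7.13% also occurred in Commd1 transcripts on the opposite strand, which is 5.35% of the Commd1 words. The libraries were directional, but strand use in the quantification is not given in the sources used here, so reads of that stretch may have been shared. Exons of Nnat, Mcts2 and Nap1l5 overlapped no exon of their hosts. Mcts2 shared 0.695% of its words with another gene, the predicted gene Gm8328, and none with its X-linked relative Mcts1.

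The promoters of the 4 nested genes are shown because their CpG dinucleotides, written CG and set in capitals, are the positions at which an imprint is carried. Each run covers 250 bases before to 50 bases after the gene's start, 5′ to 3′ on the gene's own strand, from RefSeq on GRCm38.p6. The Nnat run is chr2:157559828-157560127 on the plus strand and that of Mcts2 chr2:152686898-152687197 on the plus strand. The Zrsr1 run is chr11:22971755-22972054 on the plus strand and that of Nap1l5 chr6:58907077-58907376 on the minus strand.
Nnat: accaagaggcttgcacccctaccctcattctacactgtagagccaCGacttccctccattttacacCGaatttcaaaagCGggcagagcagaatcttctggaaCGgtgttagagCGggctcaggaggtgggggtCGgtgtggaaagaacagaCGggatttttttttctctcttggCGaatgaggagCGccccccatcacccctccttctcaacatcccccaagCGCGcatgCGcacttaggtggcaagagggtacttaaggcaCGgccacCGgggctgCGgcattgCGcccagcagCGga
Mcts2: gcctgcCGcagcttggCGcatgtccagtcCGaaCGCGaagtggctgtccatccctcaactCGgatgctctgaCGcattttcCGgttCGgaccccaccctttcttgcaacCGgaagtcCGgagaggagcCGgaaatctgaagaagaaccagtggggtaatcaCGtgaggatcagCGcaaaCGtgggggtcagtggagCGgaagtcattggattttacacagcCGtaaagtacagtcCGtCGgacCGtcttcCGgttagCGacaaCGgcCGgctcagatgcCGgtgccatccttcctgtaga
Zrsr1: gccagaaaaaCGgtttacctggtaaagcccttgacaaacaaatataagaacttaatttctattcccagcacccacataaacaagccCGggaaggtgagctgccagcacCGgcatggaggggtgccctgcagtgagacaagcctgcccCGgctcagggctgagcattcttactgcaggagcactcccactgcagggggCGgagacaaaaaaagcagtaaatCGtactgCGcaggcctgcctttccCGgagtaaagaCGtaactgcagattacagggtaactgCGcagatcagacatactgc
Nap1l5: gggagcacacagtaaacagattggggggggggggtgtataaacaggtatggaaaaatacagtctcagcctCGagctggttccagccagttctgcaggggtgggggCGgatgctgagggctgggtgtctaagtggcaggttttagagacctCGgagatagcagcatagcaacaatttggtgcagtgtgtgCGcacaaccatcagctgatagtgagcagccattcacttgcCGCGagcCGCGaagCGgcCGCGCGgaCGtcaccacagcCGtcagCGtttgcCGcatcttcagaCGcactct

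The Mcts2 window held 25 CG dinucleotides, the Nnat and Nap1l5 windows 17 each and the Zrsr1 window 10. Over 32851 mouse promoter windows of the same length the median was 7, and 18.4%, 31.4%, 31.4% and 43.5% of windows held at least as many as Mcts2, Nnat, Nap1l5 and Zrsr1. Host windows were comparable for Blcap (17), H13 (21) and the pair of Commd1 starts (17 and 18), and poorer for Herc3 (4). Not all of these windows lay at the outermost annotated start. That of Herc3 began at 58833450, inside a plus-strand gene annotated from 58831465. The Blcap window ended at 157566611, inside a minus-strand gene annotated to 157571274. The Commd1 window with 17, at 22972817 to 22973116, lay within Zrsr1 (22972005 to 22976496). The outermost starts of Herc3 and Blcap were not compared. The window of the main Inpp5f start, not that of its internal transcript, held 15. TGCCGC, the core of the motif bound in its methylated form by the imprint-maintaining protein ZFP57, was searched on both strands. It occurred in the Nnat (1), Mcts2 (1) and Nap1l5 (2) windows, in the Commd1 window of the farther start (1), and in 11.6% of all windows. It was not found in the Zrsr1, Blcap, H13, Herc3 or Inpp5f windows. These matches describe letters in a window and not sites in use.

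The libraries set the frame for every value. Summed FPKM ran from 500126 to 662936 in xHomo and from 543948 to 570161 in xHet embryos; read depth is unknown, and FPKM kept to 2 decimals gives no interval from counts. The level of Xist, which coats the silent X chromosome, was above 10 FPKM in 5 of 10 xHomo and 0 of 3 xHet embryos, so embryos with high Xist were found in the xHomo group alone and allow no comparison of groups. Embryo markers were present, with Hbb-y at 1940 to 5866 FPKM in xHomo and 3785 to 3933 FPKM in xHet embryos. The 6 placental markers summed to 0.65 to 5.55 FPKM in xHomo and 0.52 to 1.14 FPKM in xHet embryos, with Tpbpa listed at 0 in all 13. Of the 3 decidual markers, Prl8a2 reached 0.18 FPKM in xHomo embryos and was listed at 0 in all xHet embryos. The other markers, Des and Cryab, which muscle also expresses, were at 16.4 ± 1.91 and 8.02 ± 1.34 FPKM in xHomo (SD, n = 10) and 13.4 ± 2.05 and 6.44 ± 1.27 FPKM in xHet embryos (SD, n = 3), with unadjusted p of 0.0309 and 0.0793 (limma adjusted p = 0.518 and 0.571). Their part in the members' values was not tested. xHomo embryo 3 stood apart, with 9.71% of the 12755 genes tested lower than the xHet mean by at least 1 log2 unit, against 0.76% to 1.53% in the other xHomo embryos and 0.549% to 0.643% in xHet embryos set against the other 2. Its median gene was lower by 0.27 log2 units.

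**Figure D1:**
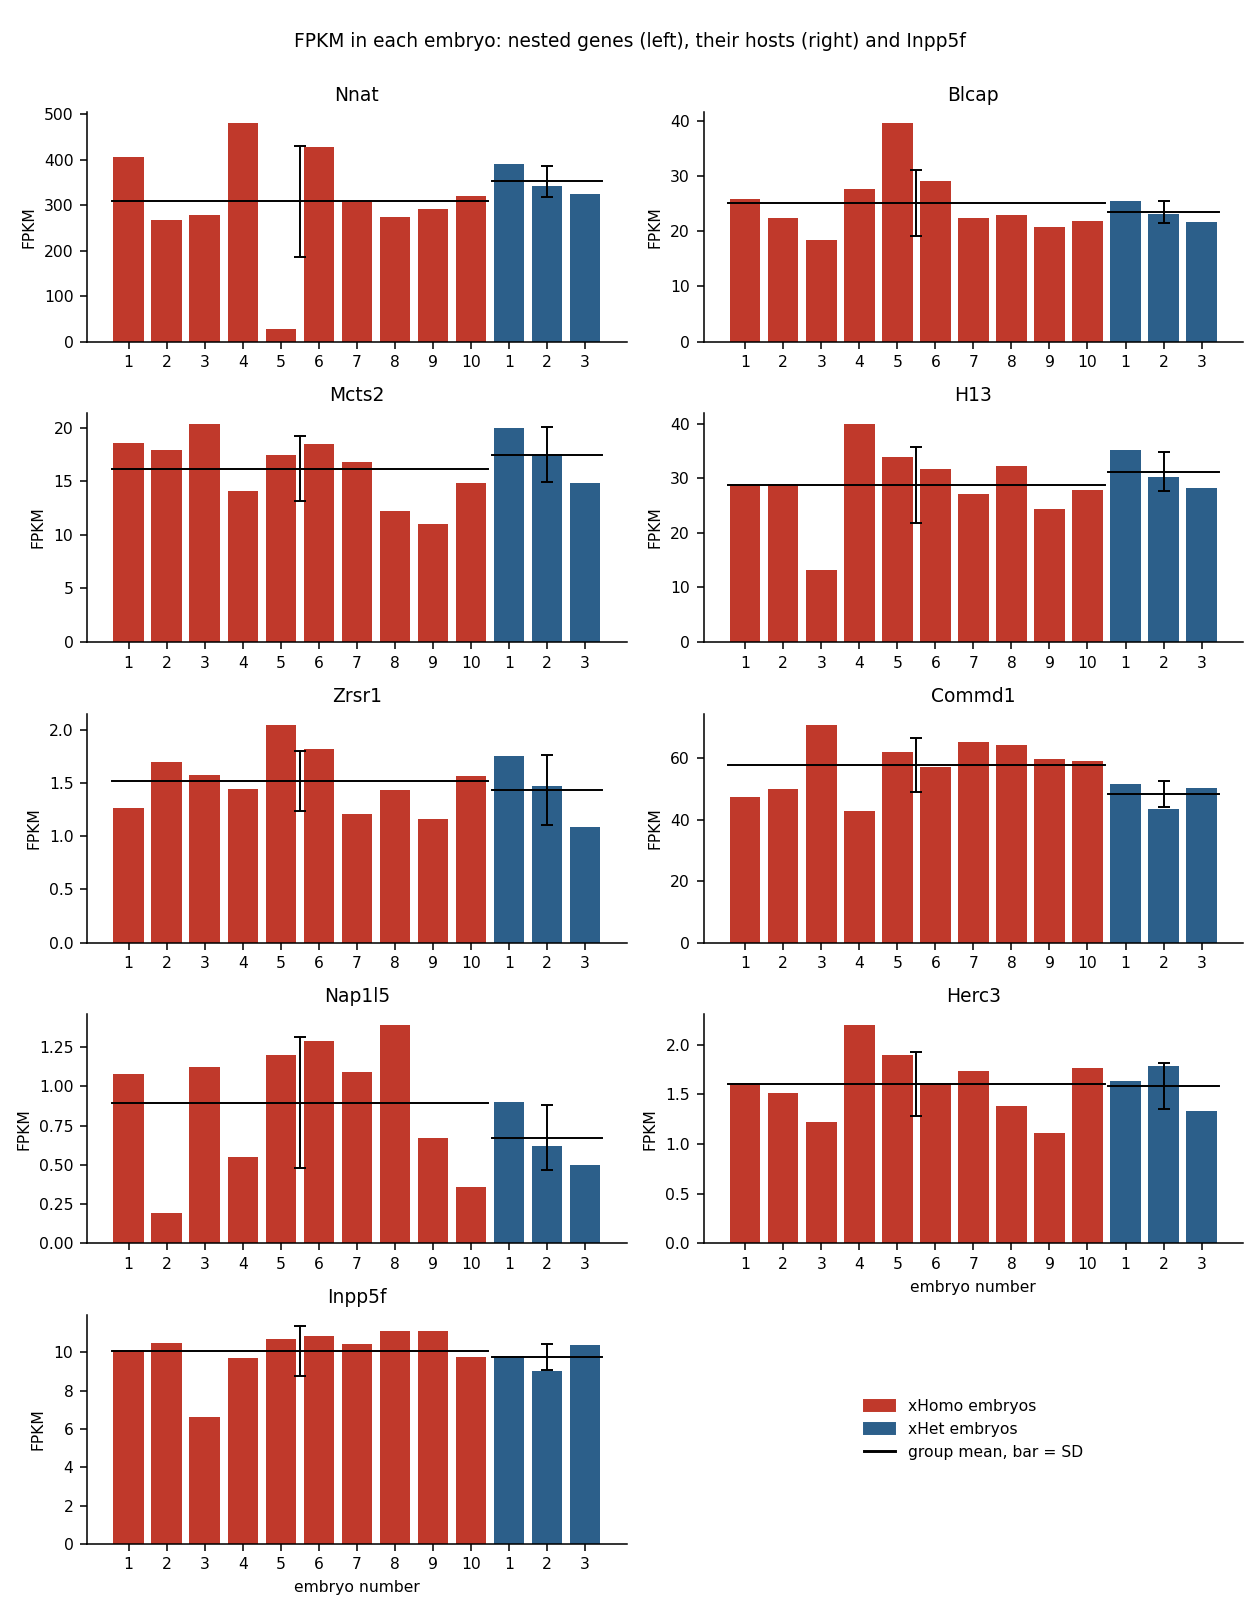
FPKM of each gene (vertical axis) in xHomo embryos 1 to 10 (red) and xHet embryos 1 to 3 (blue), with the group mean as a line and its SD as an error bar; nested genes are on the left and their hosts on the right, with Inpp5f at the bottom. Nnat in xHomo embryo 5 (27.3 FPKM) and H13 in xHomo embryo 3 (13.2 FPKM) fall well short of the other bars, and Blcap is at its highest in xHomo embryo 5 (39.6 FPKM).

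No member passed a comparison of the group means. The comparison used log2(FPKM+1) and limma, a linear model fitted over all 12755 genes with a mean of at least 1 FPKM, and fold changes on this scale understate the change of low genes. Of the 8 members tested, 0 passed a limma adjusted p of 0.05 and 0 had an unadjusted p under 0.05, where 0.0235% of all genes passed and 7.63% and 1.72% had an unadjusted p under 0.05 in the higher and lower direction. An exact permutation test for each gene also passed 0 members, which adds little. Its smallest p over 286 splits is 0.0035, too large to pass adjustment over 12755 genes unless many genes share it. The median log2 change of the 8 was 0.02, and that of all genes 0.05. The ranges of the groups overlapped or interleaved for all 9 members, while they were disjoint for 2.24% of all genes. Among the 5 xHomo and 3 xHet embryos with Xist under 10 FPKM, a comparison added after the values were seen, log2 changes ran from -0.61 for Nnat to 0.27 for Blcap, and again 0 of 8 members passed. The account below therefore goes by embryo.

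Nnat encodes neuronatin, a small membrane protein of developing brain and endocrine tissue. It was the most abundant nested gene, at 27.3, 299.9 and 479.6 FPKM (lowest, median and highest) in xHomo embryos, against 391, 342 and 323 FPKM in xHet embryos 1 to 3. The lowest value, in xHomo embryo 5, stood alone: the other 9 xHomo embryos ran from 268 to 479.6 FPKM, with 3 above and 6 below every xHet embryo. In xHomo embryo 5 Nnat was at 7.76% of the xHet mean, a difference of -3.63 log2 units. Of the 12755 genes tested 31 (0.243%) were at least as far below the xHet mean in that embryo, and 29 of these were small RNA genes. The other one besides Nnat was the predicted gene Gm12238, which was also listed at 0 in further xHomo embryos. As a group mean Nnat did not pass, with 308 ± 123 FPKM in xHomo (SD, n = 10) and 352 ± 34.7 FPKM in xHet embryos (SD, n = 3), for a limma log2 change of -0.44 with an SE of 0.61 and an adjusted p of 0.844, and without xHomo embryo 5 the log2 change was -0.08.

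Blcap, the host of Nnat, encodes a small conserved membrane protein first described in bladder carcinoma. It was at 18.5, 22.7 and 39.6 FPKM (lowest, median and highest) in xHomo embryos, against 25.6, 23.1 and 21.8 FPKM in xHet embryos 1 to 3. Its highest value belonged to xHomo embryo 5, the embryo with the lowest Nnat. The other 9 xHomo embryos averaged 23.5 ± 3.39 FPKM (SD, n = 9) and reached 29.1 FPKM at most. Blcap in xHomo embryo 5 was 0.73 log2 units above the xHet mean, where 1.22% of genes in that embryo were as high or higher and its median gene was 0.17 units above. The group means were 25.1 ± 6.01 FPKM in xHomo (SD, n = 10) and 23.5 ± 1.93 FPKM in xHet embryos (SD, n = 3; limma adjusted p = 0.909).

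**Figure D2:**
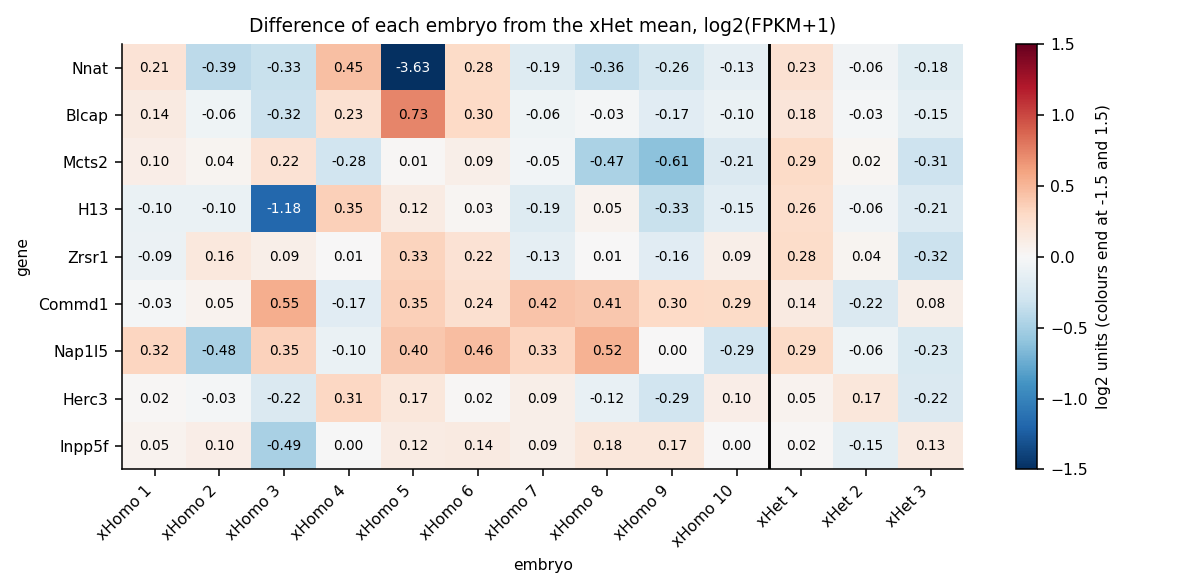
Difference in log2(FPKM+1) of each embryo (columns, xHomo left of the line and xHet right of it) from the xHet mean for each gene (rows); a xHet embryo is set against the mean of the other 2. The values past 1 log2 unit are Nnat in xHomo embryo 5 (-3.63) and H13 in xHomo embryo 3 (-1.18).

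Set against each other, Nnat and Blcap held a narrow ratio in most embryos. Nnat stood at 0.690, 14.4 and 17.4 times the FPKM of Blcap (lowest, median and highest) in xHomo embryos, against 15.3, 14.8 and 14.8 times in xHet embryos 1 to 3. The lowest ratio was again that of xHomo embryo 5, and the remaining 9 lay at 11.9 or above. Group means of the log2 ratio of FPKM+1 did not pass, with 3.35 ± 1.37 in xHomo (SD, n = 10) and 3.85 ± 0.028 in xHet embryos (SD, n = 3), a difference of -0.50 (two-sided exact permutation test over 286 splits of the embryos, p = 0.423, adjusted p = 0.751 over 4 pairs).

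Neighbours on chromosome 2 did not share the low value of Nnat in xHomo embryo 5. The nearest tested genes in the table were Manbal and Src before the pair and Ctnnbl1 and Tti1 after it, 84523 to 415441 bases away. In xHomo embryo 5 they stood 0.33, 0.28, 0.36 and 0.33 log2 units above the xHet mean. Src, a tyrosine kinase gene and the nearest of them, was at 16.2 FPKM there, against 13.2 ± 0.644 FPKM in xHet embryos (SD, n = 3). Manbal and Tti1, like Blcap, were at their highest among the xHomo embryos in xHomo embryo 5. The median gene of that embryo was 0.17 units above the xHet mean.

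**Figure D3:**
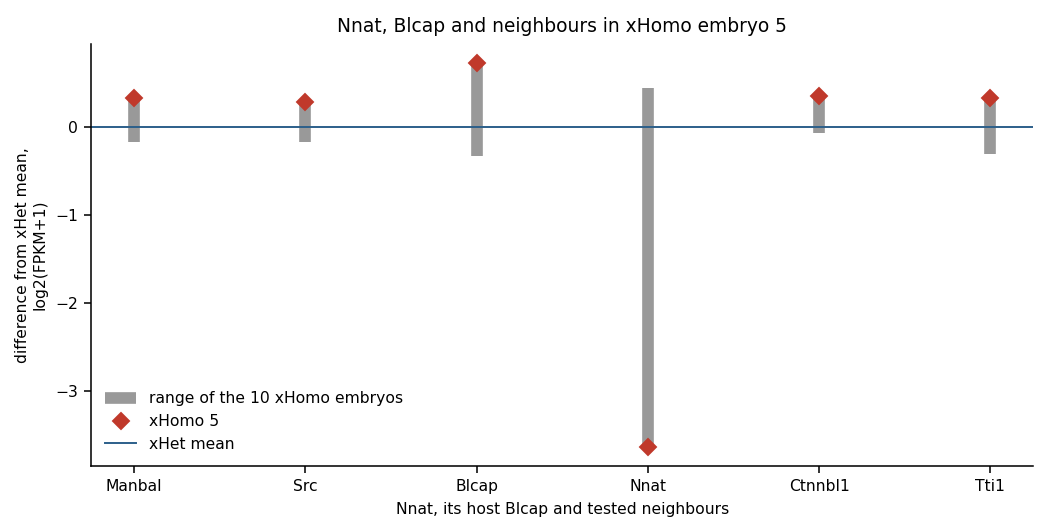
Difference from the xHet mean in log2(FPKM+1) (vertical axis) for Nnat, its host Blcap and the 4 nearest tested genes; grey bars span the 10 xHomo embryos and red diamonds mark xHomo embryo 5. The diamond lies at the bottom of the range for Nnat (-3.63) and at the top for Blcap (0.73). For the neighbours it lies between 0.28 and 0.36, which is also the top of the range for Manbal and Tti1.

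Since Nnat is expressed in the nervous system, markers of neural tube and neurons were set beside it; in whole embryos fewer cells of a type and less RNA per cell cannot be told apart. The 12 markers summed to 231 FPKM in xHomo embryo 5, within the 115 to 244 FPKM of the xHomo embryos and above the 143 to 156 FPKM of the xHet embryos. None of the 12 was 1 log2 unit or more below the xHet mean in that embryo, where 0.949% of all genes were. Tubb3 and Nefm, 2 of the 12, were that far above, where 0.729% of all genes were. Tubb3 was at 60.6 FPKM and Nefm, a neurofilament gene, at 13.9 FPKM there, against xHet means of 27.5 and 5.75 FPKM. Elavl4, which encodes an RNA-binding protein of neurons, was at 12.4 FPKM there, less than 1 log2 unit above the xHet mean. Nefm and Elavl4 were at their highest among the xHomo embryos. Pax6 was at 14.1 FPKM there, below the 15.0 to 16.8 FPKM of the xHet embryos. Across the groups 11 of 12 markers had a log2 change above 0, 1 had an unadjusted p under 0.05 and 0 passed (median 0.22). The markers were highest in xHomo embryos 4, 5 and 6, at 244, 231 and 222 FPKM, which were also the 3 xHomo embryos with the highest Blcap; xHomo embryos 4 and 6 had the highest Nnat. The 5 markers of yolk sac and visceral endoderm also summed highest in xHomo embryo 5, at 75.6 FPKM, against 12.7 to 52.6 FPKM in the other xHomo embryos and 35.4 to 47.8 FPKM in xHet embryos. The part of either list in the values of Nnat and Blcap was not tested.

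Mcts2, a retrogene related to the X-linked Mcts1, whose protein takes part in translation, showed no value as low as that of Nnat. It was at 11.0, 17.1 and 20.3 FPKM (lowest, median and highest) in xHomo embryos, against 20.0, 17.5 and 14.9 FPKM in xHet embryos 1 to 3. The lowest values belonged to xHomo embryos 9 and 8, at 11.0 and 12.2 FPKM, and 5 of the 10 xHomo embryos lay within the xHet range. In xHomo embryo 9 Mcts2 was 0.61 log2 units below the xHet mean, where 4.28% of genes were as low or lower, and in xHomo embryo 8 it was 0.47 units below (3.04% of genes). The group means were 16.2 ± 3.02 FPKM in xHomo (SD, n = 10) and 17.4 ± 2.56 FPKM in xHet embryos (SD, n = 3), and limma gave a log2 change of -0.12 with an SE of 0.16 and an adjusted p of 0.840. Without a single xHet embryo the change ran from -0.22 (without xHet embryo 3) to -0.019 (without xHet embryo 1).

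H13, the host of Mcts2, encodes signal peptide peptidase, which cleaves leftover signal peptides in the membrane of the endoplasmic reticulum. It was at 13.2, 28.9 and 39.9 FPKM (lowest, median and highest) in xHomo embryos, against 35.2, 30.2 and 28.2 FPKM in xHet embryos 1 to 3. The lowest value, in xHomo embryo 3, was 42.2% of the xHet mean, and the other 9 xHomo embryos ran from 24.4 to 39.9 FPKM. That is the embryo in which many genes were low, and 5.43% of all genes lay as far below the xHet mean as H13 (-1.18 log2 units). The markers of yolk sac and visceral endoderm were lowest in that embryo too, at 12.7 FPKM in sum with 3 of the 4 tested at least 1 log2 unit low, and their part was not tested. After median-of-ratios scaling, which centres the libraries on one another, H13 no longer lay 1 unit below. With TPM rescaling the number of member values that low in xHomo embryos stayed at 2. On average it was at 28.8 ± 6.97 FPKM in xHomo (SD, n = 10) and 31.2 ± 3.62 FPKM in xHet embryos (SD, n = 3; limma adjusted p = 0.852), and the sign turned from -0.15 to 0.09 among embryos with Xist near 0.

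The ratio of Mcts2 to H13 spread more widely among xHomo embryos than among the 3 xHet embryos. It was 0.352, 0.558 and 1.55 (lowest, median and highest) in xHomo embryos, against 0.567, 0.580 and 0.528 in xHet embryos 1 to 3. In xHomo embryo 3 the nested gene stood above its host, with Mcts2 at 20.3 FPKM, its highest value, beside the lowest H13. That is the library in which 9.71% of genes tested were at least 1 log2 unit low. Ratios in the other 9 xHomo embryos ran from 0.352 to 0.643. Low ratios belonged to xHomo embryos 4 (0.352) and 8 (0.380), in which Mcts2 was low and H13 was at 39.9 and 32.2 FPKM. Of the 10 xHomo embryos 5 lay above and 4 below all xHet embryos, and the means of the log2 ratio, -0.77 ± 0.56 in xHomo (SD, n = 10) and -0.81 ± 0.065 in xHet embryos (SD, n = 3), did not pass (two-sided exact permutation test, adjusted p = 0.867). The SD in xHomo includes xHomo embryo 3, and the difference in spread was not tested.

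**Figure D4:**
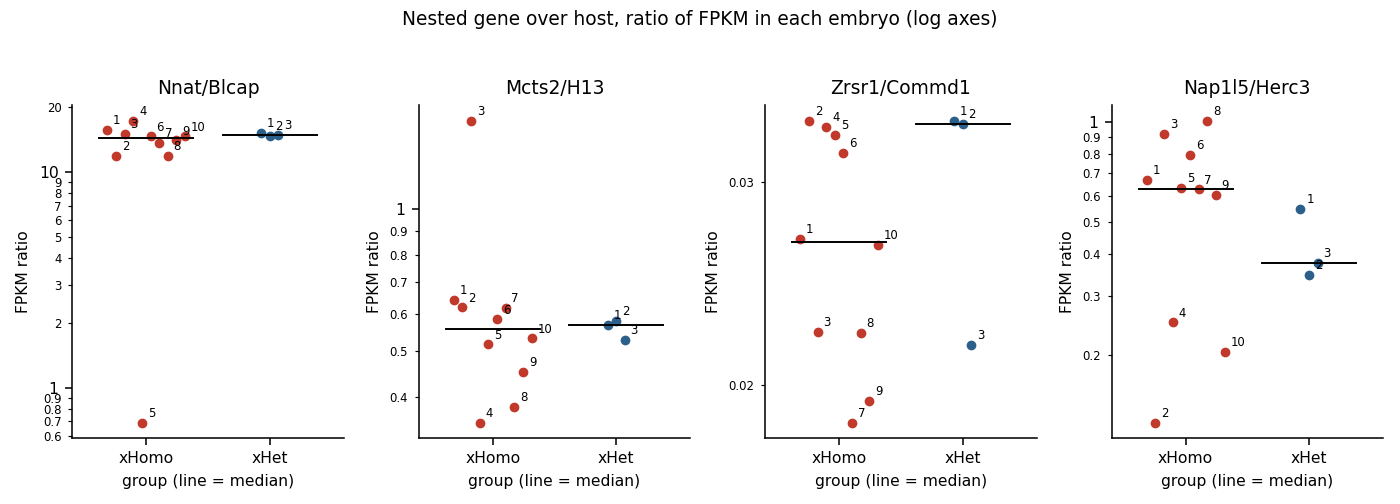
Ratio of the FPKM of the nested gene to that of its host (vertical log axis) in xHomo (red) and xHet embryos (blue), numbered by embryo, with the group median as a line; each panel has its own axis. xHomo embryo 5 is far down for Nnat/Blcap (0.690), xHomo embryo 3 far up for Mcts2/H13 (1.55), and xHomo embryo 2 lowest for Nap1l5/Herc3 (0.125).

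Zrsr1, a retrogene related to the X-linked splicing factor gene Zrsr2, was low in every embryo. It was at 1.16, 1.505 and 2.05 FPKM (lowest, median and highest) in xHomo embryos, against 1.75, 1.47 and 1.09 FPKM in xHet embryos 1 to 3. Of the 10 xHomo embryos 8 lay within the xHet range and 0 below it. Its SD among xHomo embryos, 0.16 on the log2(FPKM+1) scale, was exceeded by 82.0% of all genes tested, where the pseudocount of 1 narrows the spread of so low a gene. The SD of Nnat, 1.16, was exceeded by 1.91% of genes, but without xHomo embryo 5 it was 0.31 (n = 9), exceeded by 28.5% over the same embryos. Group means were 1.52 ± 0.281 FPKM in xHomo (SD, n = 10) and 1.44 ± 0.331 FPKM in xHet embryos (SD, n = 3; limma adjusted p = 0.907).

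Commd1, the host of Zrsr1, encodes a protein of copper handling and of NF-κB control, and had the smallest p among the members. It was at 43.0, 59.6 and 71.1 FPKM (lowest, median and highest) in xHomo embryos, against 51.6, 43.6 and 50.3 FPKM in xHet embryos 1 to 3. In 7 of 10 xHomo embryos it was above every xHet embryo, in 1 below and in 2 between. It averaged 58.0 ± 8.74 FPKM in xHomo (SD, n = 10) and 48.5 ± 4.29 FPKM in xHet embryos (SD, n = 3), for a limma log2 change of 0.24 with an SE of 0.13, which did not pass (unadjusted p = 0.0927, adjusted p = 0.581). With array weights, a version of limma that gives less weight to libraries far from their group, it passed (log2 change 0.29, limma adjusted p = 0.0312), where 2371 of all genes passed as higher and 408 as lower. The embryo with the highest value was xHomo embryo 3, where Commd1 was 0.55 log2 units above the xHet mean while the median gene was 0.27 below. The chaperonin gene Cct4, which begins 8308 bases after the pair, was at 200.3 ± 17.2 FPKM in xHomo (SD, n = 10) and 179 ± 7.74 FPKM in xHet embryos (SD, n = 3; limma adjusted p = 0.595). The log2 ratio of Zrsr1 to Commd1 was -4.54 ± 0.26 in xHomo (SD, n = 10) and -4.35 ± 0.24 in xHet embryos (SD, n = 3; two-sided exact permutation test, adjusted p = 0.751).

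Nap1l5, which encodes a protein like the nucleosome assembly factors, was the lowest member. It was at 0.19, 1.085 and 1.39 FPKM (lowest, median and highest) in xHomo embryos, against 0.90, 0.62 and 0.50 FPKM in xHet embryos 1 to 3. The lowest values belonged to xHomo embryos 2 and 10, at 0.19 and 0.36 FPKM, both below every xHet embryo, while 6 xHomo embryos lay above every xHet embryo. Averages were 0.894 ± 0.418 FPKM in xHomo (SD, n = 10) and 0.673 ± 0.205 FPKM in xHet embryos (SD, n = 3), a difference of 0.15 on the log2(FPKM+1) scale (two-sided exact permutation test of this gene alone, p = 0.486). The difference was 0.075 without xHet embryo 3 and 0.25 without xHet embryo 1. At this level the pseudocount of 1 flattens the differences, and the number of reads behind each value is unknown.

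Herc3, the host of Nap1l5, encodes a ubiquitin ligase of the HECT family. It was at 1.11, 1.62 and 2.20 FPKM (lowest, median and highest) in xHomo embryos, against 1.64, 1.79 and 1.33 FPKM in xHet embryos 1 to 3, and 6 of 10 xHomo embryos lay within the xHet range (limma adjusted p = 0.988). The ratio of Nap1l5 to Herc3 was 0.125, 0.629 and 1.01 (lowest, median and highest) in xHomo embryos, against 0.549, 0.346 and 0.376 in xHet embryos 1 to 3. In 7 xHomo embryos it was above and in 3 below every xHet embryo, and the difference of the mean log2 ratios was 0.14 (two-sided exact permutation test, p = 0.563, adjusted p = 0.751). The nearest tested gene before this pair was Abcg2, a transporter gene 141248 bases away, at 30.7 ± 5.16 FPKM in xHomo (SD, n = 10) and 38.4 ± 1.70 FPKM in xHet embryos (SD, n = 3; limma adjusted p = 0.531).

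Inpp5f encodes a phosphoinositide phosphatase, and its single row in the table joins the full-length RNA, made from both copies, with the imprinted internal transcript. It was at 6.64, 10.5 and 11.1 FPKM (lowest, median and highest) in xHomo embryos, against 9.83, 9.02 and 10.4 FPKM in xHet embryos 1 to 3. The lowest value was in xHomo embryo 3, and the other 9 xHomo embryos ran from 9.72 to 11.1 FPKM. There 32.8% of genes lay as far below the xHet mean (-0.49 log2 units), so the value was near that of many genes of this library. The group means were 10.1 ± 1.31 FPKM in xHomo (SD, n = 10) and 9.75 ± 0.693 FPKM in xHet embryos (SD, n = 3; limma adjusted p = 0.935). Bag3, a cochaperone gene 64385 bases before it, was at 8.58 ± 0.884 FPKM in xHomo (SD, n = 10) and 6.95 ± 0.433 FPKM in xHet embryos (SD, n = 3), with an unadjusted p of 0.0147 that did not pass (limma adjusted p = 0.494).

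Counted over members and embryos, 2 of 90 values in xHomo embryos were at least 1 log2 unit below the xHet mean and 0 above it, against 0 of 27 in xHet embryos in either direction. Over all genes tested 1.85% of values in xHomo embryos were that far below and 1.04% that far above, and 0.609% and 0.502% in xHet embryos. The members' count was near this background. It includes Nap1l5, which is under the filter that the background genes passed. At a xHet mean of 0.673 FPKM and with a pseudocount of 1, Nap1l5 could not fall 1 log2 unit even at 0 FPKM. Nnat passed in xHomo embryo 5, where 0.949% of genes were that low, and its difference was matched or passed by 0.243% of them. The other value was that of H13 in xHomo embryo 3, where 9.71% of genes were that low.

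Whether a nested gene and its host went up and down together was asked across xHomo embryos. Pearson's r was taken on log2(FPKM+1), without an embryo that a wide gap set apart, which removed xHomo embryo 5 for Nnat with Blcap and xHomo embryo 3 for Mcts2 with H13. Over the remaining 9 embryos Nnat and Blcap gave r = 0.851 (permutation p = 0.0043, adjusted p = 0.0172 over 4 pairs), whereas Spearman's rho, 0.633, did not pass (permutation p = 0.0771, adjusted p = 0.308). Without xHomo embryos 4 and 6, those farthest from the Nnat median, r was 0.652 over 7 embryos (permutation p = 0.151), and without xHomo embryo 1 alone the call was lost as well (r = 0.837, permutation, adjusted p = 0.0809). That the pair passed thus rests on single embryos, although r stayed positive. In xHomo embryos 4 and 6 the neural markers were high. xHomo embryo 5, with the lowest Nnat and the highest Blcap, went against it.

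The other pairs gave no such relation. Mcts2 and H13 gave r = 0.147 (permutation p = 0.705) and rho = 0.133 (permutation p = 0.743) over 9 embryos, and r = -0.414 without xHomo embryos 8 and 9, while TPM rescaling gave r = 0.485 (permutation, adjusted p = 0.410). Zrsr1 and Commd1 gave r = 0.0793 (permutation p = 0.828) and rho = -0.0667 (permutation p = 0.864) over 10 embryos, and r = 0.0274 without xHomo embryos 5 and 9, while TPM, median-of-ratios and quantile scaling gave r of 0.322, 0.398 and 0.366, none of which passed. Nap1l5 and Herc3 gave r = -0.139 (permutation p = 0.699) and rho = -0.164 (permutation p = 0.647) over 10 embryos, and r = -0.171 without xHomo embryos 2 and 10. Adjusted p over the 4 pairs was 0.828 for each r and 0.864 for each rho of these permutation tests. Both genes of a pair share the library and its scaling.

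**Figure D5:**
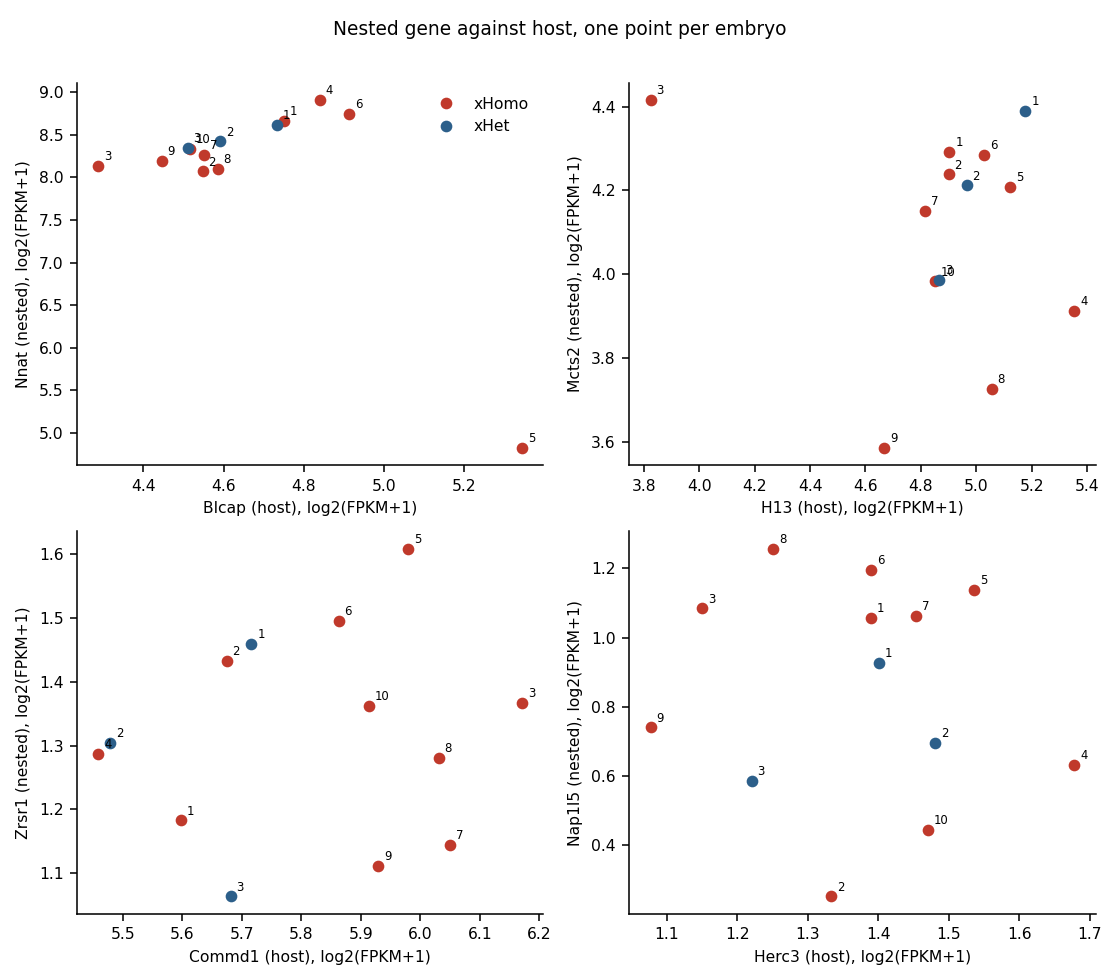
Level of the nested gene (vertical axis) against its host (horizontal axis), both in log2(FPKM+1), with a numbered point for each xHomo (red) and xHet (blue) embryo; axes do not start at 0. xHomo embryo 5 lies at high Blcap and low Nnat while the other points of that panel rise together, and xHomo embryo 3 lies at low H13 and high Mcts2.

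Genes whose levels ran most like each nested gene over the 13 embryos were listed by Pearson's r on log2(FPKM+1), as a description over all genes tested. For Nnat these were the small RNAs Snord87 (r = 0.931) and Mir20a (r = 0.880), both listed at 0 in xHomo embryo 5, and Tstd1 (r = 0.770), at its lowest of 0.68 FPKM in the same embryo; the rank correlations were 0.313, 0.313 and 0.148. For Mcts2 they were Mrpl16, Thg1l and Zcchc9 (r = 0.866, 0.834 and 0.819), and for Zrsr1 Parl, 2310008H09Rik and Fh1 (r = 0.935, 0.908 and 0.899). For Nap1l5 they were Ccdc32, 2610017I09Rik and Fabp7 (r = 0.897, 0.887 and 0.882), and for Inpp5f Mllt4, Asah1 and Ctsl (r = 0.966, 0.957 and 0.954, with rank correlations of 0.911, 0.797 and 0.863). No embryo was set aside for these r. Wide gaps set apart xHomo embryo 5 for Nnat and xHomo embryo 3 for Inpp5f, and both were kept. No host was among the genes named for its nested gene, so each host has a lower r by that choice. Over the same 13 embryos Blcap gave r = -0.609 with Nnat (rank correlation 0.374, above those of the 3 genes named for Nnat). With their nested genes H13 gave -0.199, Commd1 0.124 and Herc3 -0.0832.

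Relatives of the retrogenes elsewhere in the genome were set beside them. Of 8 listed, 7 were in the table and 6 passed the filter, of which 4 had a log2 change above 0, 1 an unadjusted p under 0.05 and 0 an adjusted p under 0.05 (median 0.09, against 0.05 for all genes). Mcts1 was at 41.5 ± 7.10 FPKM in xHomo (SD, n = 10) and 42.8 ± 2.79 FPKM in xHet embryos (SD, n = 3; limma adjusted p = 0.904), above Mcts2 in each group mean per length of transcript. Zrsr2 was at 12.0 ± 0.869 FPKM in xHomo (SD, n = 10) and 11.2 ± 0.176 FPKM in xHet embryos (SD, n = 3; limma adjusted p = 0.747). The X-linked Nap1l3 had the smallest p of them, with 1.22 ± 0.197 FPKM in xHomo (SD, n = 10) and 0.707 ± 0.0709 FPKM in xHet embryos (SD, n = 3; unadjusted p = 0.00516, limma adjusted p = 0.481). Mcts1, Zrsr2 and Nap1l3 are X-linked, and Xist was above 10 FPKM in 5 of 10 xHomo and 0 of 3 xHet embryos. The part of this difference in their values was not tested.

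Imprinted genes of other loci, listed for their maternally methylated control regions, gave the wider frame. Which parental copy each of them is read from was not measured. Of 22 listed, all were in the table and 19 passed the filter; 7 had a log2 change above 0 and 12 below, and 0 passed before or after adjustment (median -0.20, against 0.05 for all genes). Of their 190 values in xHomo embryos 21 (11.1%) were at least 1 log2 unit below the xHet mean and 4 (2.11%) that far above, against 1.85% and 1.04% over all genes tested. Of the 21, 3 were in xHomo embryo 3. In xHet embryos 1 value was that low (xHet embryo 3) and 1 that high (xHet embryo 2). A gene such as Peg10, at 0.01 to 126.9 FPKM in xHomo embryos, can count in several embryos, so the 21 are not as many genes. Airn ran from 0 to 11 FPKM among the xHet embryos themselves. In xHomo embryo 5 a single gene of the 19 was at least 1 log2 unit below the xHet mean. That gene was Impact, a regulator of translation, at 6.48 FPKM there against 18.3 to 21.3 FPKM in xHet embryos. Its low value was not particular to that embryo. Impact ran from 4.94 FPKM (xHomo embryo 3) to 19.4 FPKM among the xHomo embryos. In xHomo embryo 5 Peg10, a gene derived from a retrotransposon, was at 126.9 FPKM and Peg3, a zinc finger gene, at 55.1 FPKM, both the highest values among the xHomo embryos. The 20 neighbours of the hosts had 17 log2 changes above 0 and 3 below, 1 with an unadjusted p under 0.05 (Bag3, above), and 0 passed (median 0.13).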

How the data were processed

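RNA of 13 whole mouse embryos was extracted with a column kit and DNase, poly(A)-selected and made into directional libraries, per the labels' protocols. The authors deposited FPKM per gene; bcl2fastq 1.8.2, TopHat and Cufflinks on the mm9 build are named in the submitters' processing notes. Low FPKM values did not fall on whole-read steps (25 genes gave 23 distinct ratios between a pair of libraries), so depth is unknown and no count test was run. Groups were taken from the labels, and 0 columns of the table lacked a sample. No 2 columns were identical, and correlations between embryos ran from 0.904 to 0.953.

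log2(FPKM+1) of the 12755 genes with a mean of at least 1 FPKM was fitted with limma 3.58.1 in R 4.3.3 (trend, two-sided, Benjamini-Hochberg, threshold 0.05), xHomo against xHet without covariates, and was tested on simulated data. Ratios of nested gene to host were compared by exact permutation over 286 splits of the embryos, whose smallest p is 0.0035. Correlations used 100000 permutations, and an embryo beyond a gap of over 0.5 of the range was set aside. A value was counted as departing when it differed from the xHet mean by 1 log2 unit or more, leaving out of that mean the embryo under comparison where it was a xHet embryo. Python 3.11.15, numpy 2.4.6, pandas 2.3.3, scipy 1.17.1 and matplotlib 3.10.9 were used.

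The text names all members, the 3 genes most like each nested gene, the 2 nearest tested neighbours on each side, and from each list a few by rule or by their values in the embryo discussed, which were chosen after the values were seen. Members and lists were chosen with earlier results of these data known. The test of Nap1l5 alone, which lies under the filter, was also added after values were seen. Tmem185a is not analysed here. Beside the neural list, 7 markers of other embryo tissues gave 7 tested genes, 4 with a log2 change above 0 and 3 below; none of 6 placental markers passed the filter. The 2 tested decidual markers and the third summed to 18.5 to 27.8 FPKM in xHomo and 16.9 to 23.1 FPKM in xHet embryos, and 5 yolk sac markers to 12.7 to 75.6 FPKM in xHomo and 35.4 to 47.8 FPKM in xHet embryos. Alternatives were other pseudocounts (0.1 and 5), TPM rescaling, median-of-ratios and quantile scaling, no filter, array weights, Xist as a covariate, a replicate block, other departure thresholds and leaving out each embryo.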

Additional observations from a re-analysis of the deposited data

Results flagged for a closer look

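Among 13 sets of 10 xHomo values examined, the 9 genes and the 4 ratios of nested gene to host, 5 had an embryo far from the others: 3 genes and 2 ratios built from them. Chance gives this nominally in about 5% of sets, but in these data 22.8% of all 12755 tested genes met the same rule, 19.2% with the lowest value in xHomo embryo 3 and 0.0392% with the lowest in xHomo embryo 5. The measure is the gap to the nearest embryo as a share of the whole range, which in each of the 5 was above Dixon's critical value for a group of 10. The share was 0.795 for Nnat and 0.879 for the ratio of Nnat to Blcap, both lowest in xHomo embryo 5. It was 0.551 for H13 and 0.734 for Inpp5f, both lowest in xHomo embryo 3, and 0.591 for the ratio of Mcts2 to H13, highest in that embryo. xHomo embryo 3 is the library in which 9.71% of all genes were at least 1 log2 unit below the xHet mean. In xHomo embryo 5 that share was 0.949%, and the part of the library in the Nnat value was not tested beyond this.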

How the results depend on the processing

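The table holds FPKM without counts, so values near 1 FPKM, as for Zrsr1, Nap1l5 and Herc3, carry an unknown counting error, and 3 xHet embryos limit every comparison of groups. Apart from leaving out embryos, 149 results under the alternatives kept their direction and side of the threshold. With array weights 1 member passed (Commd1) instead of 0. Log2 changes near 0 turned sign. With TPM rescaling they were -0.0091 for Blcap, -0.049 for Herc3 and -0.038 for Inpp5f, and with median-of-ratios scaling -0.024 for Herc3 and -0.0082 for Inpp5f; these scalings moved the median of all genes to -0.02 and 0.0042, against 0.05. H13 was at 0.037 with Xist as a covariate and at 0.090 among embryos with Xist near 0, where the Mcts2 to H13 log2 ratio differed by -0.20. The correlation of Nap1l5 with Herc3 was 0.0495 after quantile normalization. Values were counted as low at 1 log2 unit unless another threshold is named. Low values numbered 3 in place of 2 with a pseudocount of 0.1 (with Nap1l5 in xHomo embryo 2). At a threshold of a 1.5-fold change they also numbered 3 (with Mcts2 in xHomo embryo 9, at -0.61 log2 units). With TPM rescaling the low values stayed at 2. They numbered 1 with a pseudocount of 5, with median-of-ratios scaling, with quantile normalization and with a threshold of a 3-fold change, and 1 value, Blcap in xHomo embryo 5, was high with a threshold of a 1.5-fold change. The cause of these changes was not tested.

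A replicate block over embryos 1 to 3 of each group gave 0.12 for Mcts2, -0.083 for Blcap, -0.076 for Herc3 and -0.11 for Inpp5f, each reversed in sign, and no member passed. Under the block the log2 ratios differed by -0.09 (Nnat to Blcap), 0.58 (Mcts2 to H13), -0.14 (Zrsr1 to Commd1) and 0.14 (Nap1l5 to Herc3), where the smallest exact p is 0.25. Same-numbered embryos did not deviate together (correlations -0.0652, -0.0403 and -0.0383), but 3 shared numbers are too few to show whether the numbers pair embryos.

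Leaving out each embryo in turn gave log2 changes of -0.055 to 0.14 for Zrsr1 (negative without xHet embryo 3), -0.0076 to 0.13 for Blcap (negative without xHomo embryo 5), -0.067 to 0.063 for Herc3 and -0.014 to 0.094 for Inpp5f. The Mcts2 to H13 log2 ratio differed by -0.12 to 0.11, negative without xHomo embryo 3 and at -0.0020 without xHet embryo 3. Ranges for changes that kept their sign were -0.22 to -0.019 for Mcts2, -0.22 (without xHet embryo 3) to -0.036 (without xHomo embryo 3) for H13, -0.53 to -0.080 (without xHomo embryo 5) for Nnat, 0.075 to 0.25 for Nap1l5 and 0.17 to 0.29 for Commd1. The other log2 ratios differed by 0.068 (without xHet embryo 2) to 0.22 (without xHet embryo 1) for Nap1l5 to Herc3, -0.58 to -0.073 (without xHomo embryo 5) for Nnat to Blcap and -0.32 (without xHet embryo 3) to -0.10 (without xHet embryo 2) for Zrsr1 to Commd1. Correlations ran from 0.816 to 0.891 for Nnat with Blcap, -0.365 to 0.423 for Mcts2 with H13, -0.0659 to 0.224 for Zrsr1 with Commd1 and -0.279 to 0.0188 for Nap1l5 with Herc3. That of Nnat with Blcap no longer passed without xHomo embryo 1, 4 or 6 (permutation, adjusted p = 0.0809, 0.0601 and 0.0589). Low values numbered 1 to 2, with 1 without xHomo embryo 3 or 5.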
